A study of Mus musculus with 12 samples.

Results

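ADAMTS proteases, matrix metalloproteinases (MMPs) and the tissue inhibitors of metalloproteinases (TIMPs) were followed as 10 genes: Adamts1, Adamts2, Adamts4, Adamts5, Adamts9, Mmp2, Mmp14, Timp1, Timp2 and Timp3. They were chosen by name from the 33615 gene symbols of the deposited table, with earlier results of these data known. The transcripts of each were summed to 1 value per gene. All 10 had counts and passed the filter on low counts, which left 15952 genes for the tests. The RNA came from frozen mouse heart tissue, in 12 bulk RNA-seq libraries, 4 per group. In the I/R + ML264 group, hearts underwent 30 min of ischemia and 2 h of reperfusion in mice given ML264, a compound used to inhibit the transcription factor KLF5. The I/R group had the same ischemia and reperfusion without the compound, and the Sham group had a sham operation with the same 2 h interval. The labels give no strain, age or genotype, and do not state whether the 12 libraries stand for 12 animals, so a p-value here covers the spread between libraries, which may be technical. In bulk tissue, fewer cells of a type and less RNA per cell cannot be told apart.

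ADAMTS proteases are secreted zinc enzymes that cut proteoglycans such as versican or process procollagens, and MMPs cut collagens and many other matrix and surface proteins. TIMPs bind the active site of these enzymes and block it, so the balance of protease and inhibitor sets how fast the matrix around heart cells is turned over. In the injured heart this family is known mainly from the later phases of inflammation, scar formation and remodelling.

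Total estimated counts were 22.26 to 29.93 M per library, and mitochondrially encoded genes took 35.24% to 41.13% of them. Levels are given in CPM, counts per 1 M counts of the library, adjusted by TMM factors. A count of 0 allows up to 3 counts, which come to 0.1002 to 0.1348 CPM in these libraries. Y-linked Ddx3y was at 38.79 to 51.97 CPM in 8 libraries, among them all 4 Sham libraries, and at 0.1064 to 0.4842 CPM in I/R + ML264 libraries 1 and 2 and I/R libraries 1 and 4. By this gene the mix of sexes differed between Sham and both injured groups, so sex and injury cannot be fully told apart. The log2 CPM of the clock gene Arntl reached 3.39 to 3.94 in I/R library 1 and Sham libraries 2 and 3, above the other 9 libraries. Library 2 of I/R + ML264 stood among the I/R libraries on the first dimension of a multidimensional scaling of log2 CPM, and apart from its own group. On the second dimension it stood at 1.39, above all other 11 libraries, with I/R at -0.55 to 0.12, so results that rest on it are also given without it. Within genes, the deposited split into transcripts was not stable. Of 6611 genes with several transcripts and at least 100 counts in every library, 6 (0.0908%) had the same most abundant transcript in all 12, so no isoform is described.

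Adamts1 and Adamts9 rose after ischemia and reperfusion, and none of the other members was called changed. Both are secreted proteases that cut versican. A gene was called changed at a Benjamini-Hochberg adjusted p under 0.05 in edgeR's quasi-likelihood test. That made 2 of the 10 members higher and 0 lower in I/R than in Sham, where 7.75% of all genes tested were called, 4.58% as higher and 3.17% as lower. With upper-quartile factors in place of TMM, the split of all genes was 620 higher and 676 lower, against 731 higher and 505 lower, and the same 2 members were called. The median log2 fold change was 0.49 over the 10 members and 0.00 over all genes tested. Because the members were chosen with earlier results known, these shares and medians are a description and no test of the family.

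Adamts9 (chr6:92772699-92943492, minus strand, GRCm38) was at 232, 154, 185 and 250 CPM in I/R libraries 1 to 4, against 64.9, 56.3, 65.7 and 50.9 CPM in Sham libraries 1 to 4. Every I/R library lay above every Sham library, and the Sham values lay close together. Its mean was 205 ± 43.6 CPM in I/R and 59.4 ± 7.10 CPM in Sham (SD, n = 4 each). This is a 3.45-fold difference (log2 fold change 1.79 ± 0.32 SE, 95% interval 1.06 to 2.51, edgeR adjusted p = 0.0122). The call held in each of 13 alternative fits and 12 fits without 1 library, where the log2 fold change was 1.45 to 1.93. Among the libraries with Y-linked transcripts alone, it was 1.51 ± 0.21 (edgeR adjusted p = 0.00987).

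Adamts1 (chr16:85793827-85803113, minus strand, GRCm38), a neighbour of Adamts5 on the same chromosome, was at 126, 209, 167 and 377 CPM in I/R libraries 1 to 4, against 81.9, 17.3, 23.1 and 42.1 CPM in Sham libraries 1 to 4. The groups did not overlap, but both spread widely, with library 4 highest in I/R and library 1 highest in Sham. Its mean was 220 ± 110 CPM in I/R and 41.1 ± 29.2 CPM in Sham (SD, n = 4 each), a fitted 5.36-fold difference (log2 fold change 2.42 ± 0.53 SE, 95% interval 1.23 to 3.61, edgeR adjusted p = 0.026). The call was lost, with the direction kept, without I/R library 4 (adjusted p = 0.0641) or without Sham library 2, 3 or 4 (adjusted p = 0.0559, 0.0722 and 0.07). It was also lost with Y-linked expression as a covariate (log2 fold change 2.27, adjusted p = 0.0866), among the libraries with Y-linked transcripts alone (2.20 ± 0.64, adjusted p = 0.165) and in a fit of I/R and Sham only (adjusted p = 0.0703). With Arntl as a covariate the call held, at the lowest log2 fold change of all fits (1.87 ± 0.41, edgeR adjusted p = 0.0438). Sham libraries 2 and 3 and I/R library 1, the highest of their groups for Arntl, were the lowest for Adamts1. A link with Arntl was not tested.

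The RefSeq sequences just before the start of these 2 genes are shown beside that of Adamts2, a procollagen N-proteinase with nearly the same level in all groups, because both rose in I/R against Sham. RefSeq promoter windows (GRCm38.p6) were available for 7 of the 10 members, from 250 bases before to 50 after the start. The 250 bases before the start of Adamts1 (chr16:85803114-85803363), Adamts9 (chr6:92943535-92943784) and Adamts2 (chr11:50601835-50602084) follow, 5′ to 3′ along the gene, which lies on the minus strand for Adamts1 and Adamts9 and on the plus strand for Adamts2. Capitals mark a CACCC box (CACCC, or GGGTG on the other strand) or a GC box (GGGGCGGGG, or its reverse complement).
Adamts1: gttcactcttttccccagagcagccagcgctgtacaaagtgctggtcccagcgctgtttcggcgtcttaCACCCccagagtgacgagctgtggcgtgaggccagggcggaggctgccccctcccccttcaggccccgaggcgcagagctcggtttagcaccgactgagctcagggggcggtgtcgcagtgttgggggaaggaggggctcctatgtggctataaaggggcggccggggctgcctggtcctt
Adamts9: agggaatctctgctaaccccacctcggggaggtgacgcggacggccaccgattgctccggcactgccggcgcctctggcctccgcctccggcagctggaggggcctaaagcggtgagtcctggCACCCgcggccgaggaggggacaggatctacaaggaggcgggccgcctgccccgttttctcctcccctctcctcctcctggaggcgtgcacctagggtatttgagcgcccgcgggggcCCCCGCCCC
Adamts2: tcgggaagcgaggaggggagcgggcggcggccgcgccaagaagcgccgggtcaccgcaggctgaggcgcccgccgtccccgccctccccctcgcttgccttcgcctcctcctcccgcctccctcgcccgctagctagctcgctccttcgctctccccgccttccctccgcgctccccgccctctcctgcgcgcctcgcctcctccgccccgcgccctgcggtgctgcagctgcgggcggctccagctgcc
CACCC and GC boxes are the kinds of sequence that Krüppel-like factors such as KLF5 are known to bind. Adamts1 held 1 CACCC box, Adamts9 held 1 CACCC box and 1 GC box, and Adamts2 held neither. The uncalled members Mmp14, Timp1, Timp2 and Timp3 held 2, 1, 1 and 3 CACCC boxes in their windows. Of these, Mmp14 and Timp2 had log2 fold changes of -0.07 and 0.04 in I/R against Sham. Whether such boxes go with a rise was not tested. Searched on both strands, the CACCC box stood in 6 of the 7 member windows and in 57.5% of all 32851 RefSeq windows of this length. The GC box stood in 3 of the 7 (Adamts9, Mmp14 and Timp3) and in 11.4% of all windows. The letters of an AP-1 site (TGANTCA, in 7.81% of windows), a cyclic AMP response element (TGACGTCA, 1.79%), a STAT site (TTCNNNGAA, 8.30%) and an NF-kB site (GGANTTTCC, 1.25%) were in 0 of the 7 windows. A match of letters is a description of the window and shows no binding.

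**Figure D1:**
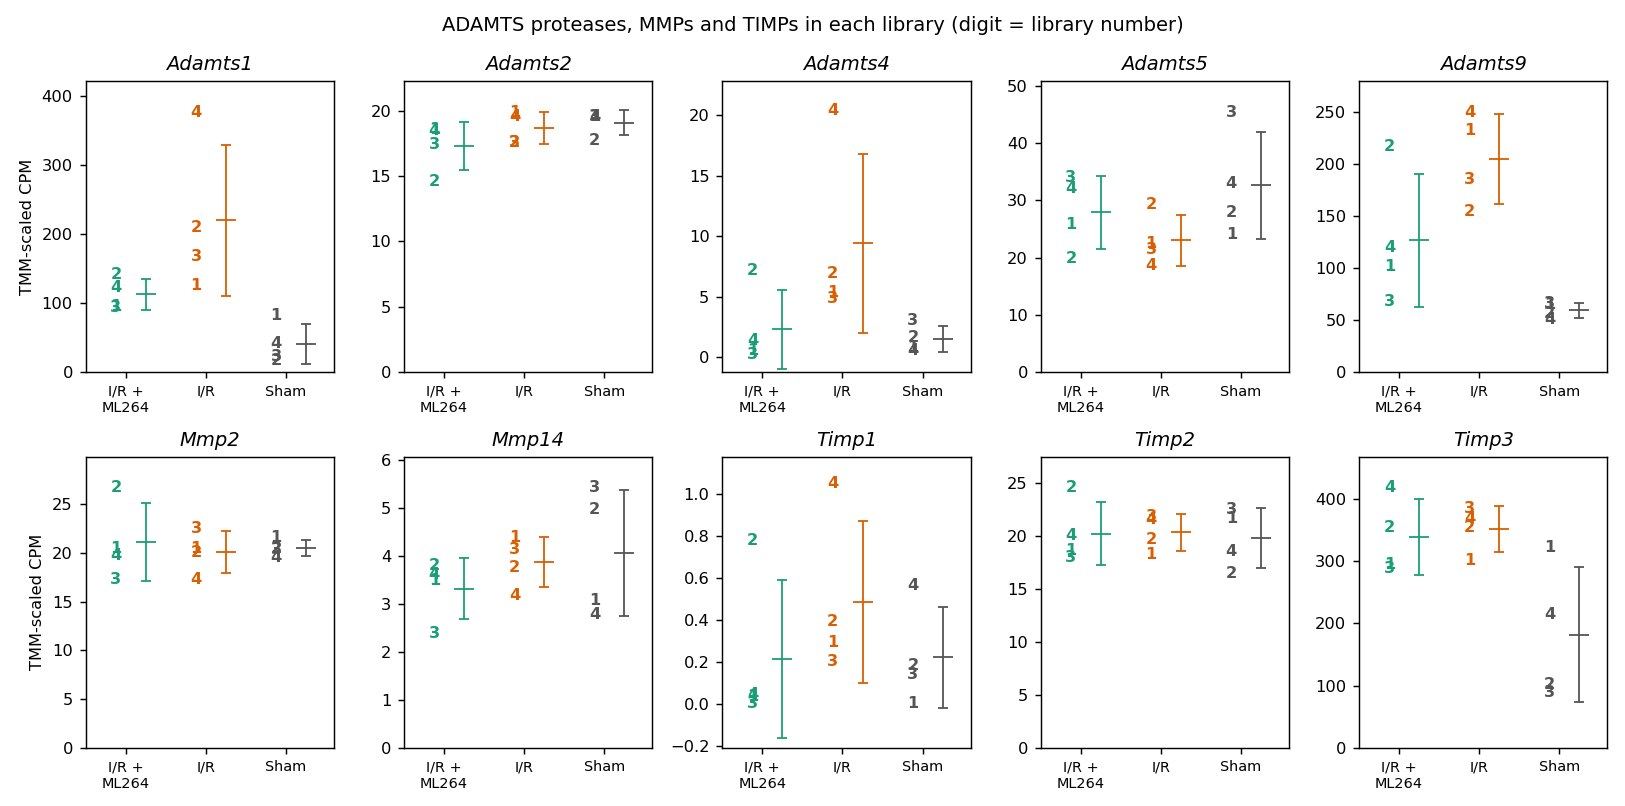
TMM-scaled CPM (vertical axes, linear, 1 scale per gene) of the 10 members in I/R + ML264, I/R and Sham; each digit is 1 library by its number, and bars are mean ± SD (n = 4). Adamts9 in I/R lies at 154 to 250 CPM, above all Sham libraries at 50.9 to 65.7 CPM, and Adamts2, Mmp2 and Timp2 lie at about one level in the 3 groups.

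The aggrecan-cutting proteases Adamts4 and Adamts5 were not called in I/R against Sham. Adamts4 (chr1:171250421-171260637, plus strand) was at 5.38, 6.96, 4.91 and 20.4 CPM in I/R libraries 1 to 4, against 0.860, 1.67, 3.02 and 0.564 CPM in Sham libraries 1 to 4. Its groups did not overlap, and 1 I/R library stood far above the other 3. The log2 fold change was 2.61 ± 0.99 SE, with a 95% interval of 0.38 to 4.84, and it was not called (edgeR adjusted p = 0.152). Adamts4, Adamts1 and Adamts9 were the 3 members whose I/R and Sham groups did not overlap, all with I/R higher, as in 8.54% of all genes tested. In limma's voom fit with library weights, Adamts4 was called (log2 fold change 2.55, adjusted p = 0.0239). In edgeR its log2 fold change was 1.89 to 3.18 when 1 library was left out, lowest without I/R library 4, and 1.71 ± 0.94 with Y-linked expression as a covariate (adjusted p = 0.393), called in none of these fits.

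Adamts5 (chr16:85856173-85901828, minus strand) was at 22.5, 29.2, 21.4 and 18.7 CPM in I/R libraries 1 to 4, against 24.1, 27.9, 45.4 and 32.9 CPM in Sham libraries 1 to 4. The groups overlapped, and the log2 fold change was -0.51 ± 0.22 SE (95% interval -0.98 to -0.03, edgeR adjusted p = 0.184). Its sign was opposite to that of Adamts1, the gene next to it in this family on chromosome 16. Adamts2 (chr11:50602084-50807573, plus strand), which trims fibrillar procollagens, was the flattest of the ADAMTS members. It averaged 18.7 ± 1.25 CPM in I/R and 19.1 ± 0.947 CPM in Sham (SD, n = 4 each), with a log2 fold change of -0.03 ± 0.10 SE (95% interval -0.24 to 0.18).

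Neither MMP member was called. Mmp2 (chr8:92827291-92853420, plus strand) encodes gelatinase A, which is secreted as an inactive proenzyme. It was at 20.5, 20.1, 22.5 and 17.3 CPM in I/R libraries 1 to 4, against 21.6, 20.5, 20.4 and 19.6 CPM in Sham libraries 1 to 4. All Sham values lay inside the I/R range. The log2 fold change was -0.03 ± 0.12 SE (95% interval -0.29 to 0.23, edgeR adjusted p = 0.918). Mmp14 (chr14:54431612-54445364, plus strand) encodes the membrane-bound protease MT1-MMP, which activates the Mmp2 proenzyme on the cell surface. It was at 4.39, 3.77, 4.14 and 3.18 CPM in I/R libraries 1 to 4, against 3.08, 4.96, 5.42 and 2.78 CPM in Sham libraries 1 to 4. All I/R values lay inside the Sham range, and the log2 fold change was -0.07 ± 0.23 SE (95% interval -0.55 to 0.40, edgeR adjusted p = 0.888).

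None of the TIMP members was called. Timp3 (chr10:86300372-86349506, plus strand) encodes the inhibitor that binds to the matrix itself and also blocks Adamts4, Adamts5 and several ADAM proteases. It was at 301, 354, 385 and 368 CPM in I/R libraries 1 to 4, against 322, 101, 89.6 and 215 CPM in Sham libraries 1 to 4. The I/R values lay close together, while the Sham values spread over a wide range, and Sham library 1 overlapped the I/R group. The log2 fold change was 0.95 ± 0.38 SE (95% interval 0.11 to 1.80, edgeR adjusted p = 0.165). Without Sham library 1 it was 1.38 ± 0.30 and called (edgeR adjusted p = 0.031), and it was called in the voom fit (1.14, adjusted p = 0.0223). Those were the only calls among 13 alternative fits and 12 fits without 1 library. With Arntl as a covariate it was 0.68 ± 0.33 (edgeR adjusted p = 0.303), and in libraries with Y-linked transcripts only 1.03 ± 0.58 (0.448). Sham libraries 2 and 3, the lowest for Timp3, were the Sham libraries with the most Arntl. Sham library 1 was also the Sham library with the most Adamts1, at 81.9 CPM.

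Timp2 (chr11:118301069-118355740, minus strand), which takes part with Mmp14 in activating Mmp2, averaged 20.3 ± 1.71 CPM in I/R and 19.8 ± 2.84 CPM in Sham (SD, n = 4 each). Its groups overlapped, and the log2 fold change was 0.04 ± 0.12 SE (95% interval -0.22 to 0.30, edgeR adjusted p = 0.895). Thus Mmp2, Mmp14 and Timp2, the parts of this activating complex, had log2 fold changes of -0.03, -0.07 and 0.04. Timp1 (chrX:20870166-20874735, plus strand), an inhibitor of most secreted MMPs, was barely detected. It was at 0.293, 0.393, 0.201 and 1.05 CPM in I/R libraries 1 to 4, against 0, 0.181, 0.139 and 0.564 CPM in Sham libraries 1 to 4. That is 51 counts in all I/R libraries together and 25 in all Sham libraries, a depth-scaled ratio of 1.93 with a 95% interval of 1.18 to 3.26 for counting error only. Between libraries the spread was wider, and the log2 fold change of 1.08 ± 1.02 SE was not called (edgeR adjusted p = 0.583).

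**Figure D2:**
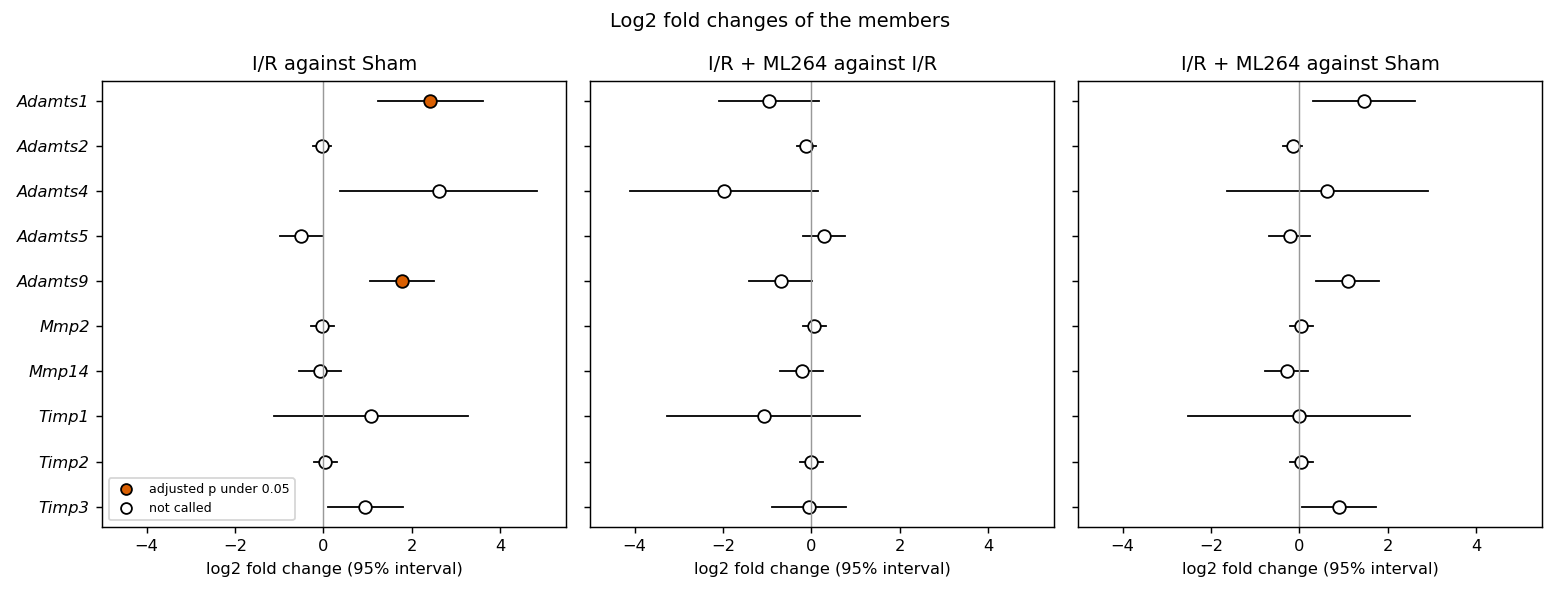
Log2 fold changes (horizontal axes) of the 10 members with 95% intervals from edgeR in the 3 comparisons; filled points have an adjusted p under 0.05. Adamts1 at 2.42 and Adamts9 at 1.79 in I/R against Sham are the filled points, and no point is filled in the ML264 comparisons.

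Injured hearts with and without the compound were then compared. For I/R + ML264 against I/R none of the 10 members was called, and 0.0502% of all genes tested were, or 8 genes. By unadjusted p under 0.05, 0 members passed in edgeR, 2 in DESeq2 and 4 in voom, and none was called by either of these tools. For all genes the edgeR share at that unadjusted p was 10.4%. The shares of all genes in DESeq2 and voom were not computed, so their 2 and 4 members have no background beside them. By adjusted p, DESeq2 called 151 genes in all and voom 8. In 0 of the 10 members were the I/R + ML264 and I/R groups apart, against 5.62% of all genes. The median log2 fold change was -0.17 over the members and 0.00 over all genes.

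Adamts9 was at 102, 217, 68.0 and 120 CPM in I/R + ML264 libraries 1 to 4, against 232, 154, 185 and 250 CPM in I/R libraries 1 to 4. Libraries 1, 3 and 4 of I/R + ML264 lay below every I/R library, and library 2 lay among them. The log2 fold change was -0.69 ± 0.32 SE (95% interval -1.40 to 0.01, edgeR adjusted p = 0.489). Without I/R + ML264 library 2 it was -1.08 ± 0.22 (unadjusted p = 0.00055, edgeR adjusted p = 0.0728), still not called, while 85 genes in all were called in that fit. That was the largest fall among the fits without 1 library, which gave -1.08 to -0.49 and called it in none.

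Adamts4 showed the same library apart. It was at 0.568, 7.20, 0.234 and 1.37 CPM in I/R + ML264 libraries 1 to 4, against 5.38, 6.96, 4.91 and 20.4 CPM in I/R libraries 1 to 4. The log2 fold change was -1.97 ± 0.95 SE (95% interval -4.11 to 0.16, edgeR adjusted p = 0.512). Without I/R + ML264 library 2 it was -3.73 ± 0.86 (edgeR adjusted p = 0.113), and without I/R library 4 it was -1.27, called in neither fit. Timp1 had 24 of its 26 I/R + ML264 counts in that library, at 0.775 CPM, against 0 to 0.0441 CPM in the other 3 and 0.201 to 1.05 CPM in I/R. Its log2 fold change was -1.08 ± 1.02 SE, and -3.98 ± 1.16 without library 2, called in neither fit (edgeR adjusted p = 0.759 and 0.133). Without I/R library 4, which held the highest I/R level of Timp1, it was -0.38 and not called.

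Adamts1 was at 95.3, 141, 93.2 and 122 CPM in I/R + ML264 libraries 1 to 4, against 126, 209, 167 and 377 CPM in I/R libraries 1 to 4. Libraries 1, 3 and 4 of I/R + ML264 lay below every I/R library, and library 2 lay above the lowest of them. The log2 fold change was -0.96 ± 0.50 SE (95% interval -2.09 to 0.17, edgeR adjusted p = 0.552), and -1.08 ± 0.58 without library 2. Over all fits without 1 library it was -1.16 to -0.57, called in none. Timp3, in contrast, was at 294, 354, 288 and 418 CPM in I/R + ML264 libraries 1 to 4, against 301, 354, 385 and 368 CPM in I/R libraries 1 to 4. Its log2 fold change was -0.06 ± 0.37 SE, with a 95% interval of -0.89 to 0.78 that leaves room for a change in either direction.

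The intervals were narrow for 3 members. They were -0.32 to 0.10 for Adamts2, -0.19 to 0.33 for Mmp2 and -0.26 to 0.26 for Timp2 on the log2 scale, with log2 fold changes of -0.11, 0.07 and 0.00. Mmp2 and Timp2 were each highest in I/R + ML264 library 2, at 26.7 and 24.5 CPM. Adamts5 averaged 27.9 ± 6.40 CPM in I/R + ML264 and 23.0 ± 4.45 CPM in I/R, and Mmp14 averaged 3.32 ± 0.644 CPM in I/R + ML264 and 3.87 ± 0.526 CPM in I/R (SD, n = 4 each). Their log2 fold changes were 0.28 ± 0.22 and -0.22 ± 0.23 SE, and neither was called (edgeR adjusted p = 0.701 and 0.78).

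Hearts given ML264 were also set against sham-operated hearts. In edgeR 0 of the 10 members were called in I/R + ML264 against Sham, with 3 at an unadjusted p under 0.05, where 0.288% of all genes tested were called and 13.0% had such an unadjusted p. DESeq2 called Adamts9 alone (adjusted p = 0.0455), and voom called 0 members. Adamts1 and Adamts9 were the 2 members whose groups did not overlap, both higher in I/R + ML264, as in 3.99% of all genes. Adamts1 was at 93.2 to 141 CPM in I/R + ML264, against 17.3 to 81.9 CPM in Sham (log2 fold change 1.46 ± 0.51 SE, 95% interval 0.30 to 2.61, edgeR adjusted p = 0.269). Adamts9 was at 68.0 to 217 CPM in I/R + ML264, against 50.9 to 65.7 CPM in Sham (1.09 ± 0.32 SE, 0.38 to 1.81, adjusted p = 0.188). Its lowest I/R + ML264 library and its highest Sham library were thus nearly level, and without I/R + ML264 library 2 the log2 fold change was 0.70 ± 0.21 (adjusted p = 0.333).

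Timp3 averaged 339 ± 61.1 CPM in I/R + ML264 and 182 ± 109 CPM in Sham (SD, n = 4 each), a log2 fold change of 0.90 ± 0.38 SE (95% interval 0.05 to 1.74, edgeR adjusted p = 0.353). Adamts4 averaged 2.34 ± 3.27 CPM in I/R + ML264 and 1.53 ± 1.10 CPM in Sham, and its log2 fold change of 0.63 turned to -1.12 without I/R + ML264 library 2. The other 6 members had log2 fold changes of -0.29 to 0.04 and overlapping groups. Among them Timp1, at -0.01, was at -2.91 ± 1.23 without I/R + ML264 library 2 and was not called (edgeR adjusted p = 0.472). These 3 comparisons share libraries, I/R + ML264, I/R and Sham each standing in 2 of them, so their fold changes are not independent of each other.

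Levels were compared between genes per kilobase of the longest coding transcript in GENCODE M21. Timp3 came first in every group, at 71.7 ± 12.9 CPM per kb in I/R + ML264, 74.6 ± 7.73 in I/R and 38.5 ± 23.2 in Sham (SD, n = 4 each). Adamts1 came second, at 23.1 ± 4.66 CPM per kb in I/R + ML264, 45.0 ± 22.5 in I/R and 8.42 ± 5.97 in Sham. Next came Adamts9, at 15.8 ± 7.98 CPM per kb in I/R + ML264, 25.6 ± 5.44 in I/R and 7.42 ± 0.885 in Sham. In each group the ranges of Adamts1 and Adamts9 overlapped, so their order was not resolved, and in I/R the highest Adamts1 library also reached into the range of Timp3.

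Mmp2 and Timp2 followed at 5.33 to 6.85 CPM per kb on average, with overlapping ranges in I/R + ML264 and in I/R but not in Sham. In Sham the range of Adamts1, 3.55 to 16.8 CPM per kb, covered those of Mmp2 and Timp2. The range of Adamts9 overlapped that of Mmp2 in Sham and in I/R + ML264, so these places were not resolved there. Adamts5 and Adamts2 averaged 2.13 to 3.02 CPM per kb, and Mmp14 1.03 to 1.25 CPM per kb. Adamts4 averaged 0.534 CPM per kb in I/R + ML264, 2.15 in I/R and 0.348 in Sham, so that it stood above Adamts5 by mean in I/R, with overlapping ranges, and below Mmp14 by mean in both other groups. Timp1 had the lowest mean in every group, at 0.242, 0.548 and 0.250 CPM per kb in I/R + ML264, I/R and Sham. Its range overlapped that of Adamts4 in every group and that of Mmp14 in I/R + ML264 and in I/R, so its place was not resolved from theirs there.

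Summed over its 5 members, the ADAMTS set held 396 to 685 CPM in I/R libraries, against 121 to 191 CPM in Sham libraries. The sum was 213 to 399 CPM in I/R + ML264 libraries, with library 2 at 399 CPM and the other 3 at 213 to 294 CPM. Adamts1 and Adamts9 together made up 75.7% to 89.6% of the ADAMTS sum in I/R + ML264, 87.1% to 91.4% in I/R and 56.7% to 76.7% in Sham. The MMP pair held 19.7 to 30.5 CPM in I/R + ML264, 20.5 to 26.7 CPM in I/R and 22.4 to 25.8 CPM in Sham. The 3 TIMPs held 306 to 439 CPM in I/R + ML264, 319 to 407 CPM in I/R and 112 to 344 CPM in Sham, and Timp3 made up 79.8% or more of that sum in every library.

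Adamts9 and Timp3 share exon positions with genes on the other strand, and the library kit did not mark strand, so reads from the overlap cannot be assigned to a strand. Of the 31-base words of Timp3, 21.88% also occurred in transcripts of other genes, and of those of Adamts9, 11.54% did; for the other members the share was at most 3.31%. A730049H05Rik, annotated as protein-coding on the other strand of Adamts9, was at 35.3, 29.8, 30.4 and 46.5 CPM in I/R libraries 1 to 4, against 5.84, 4.85, 8.51 and 6.06 CPM in Sham libraries 1 to 4 (log2 fold change 2.49, edgeR adjusted p = 0.0429). Gm15737, also opposite Adamts9, was at 24.9 to 39.1 CPM in I/R and 3.52 to 6.06 CPM in Sham (2.88, adjusted p = 0.00523). Both rose in I/R against Sham as Adamts9 did, and both stood below it in every library.

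Syn3, the synapsin gene that holds Timp3 on its other strand, was at 14.2, 28.2, 40.8 and 31.1 CPM in I/R libraries 1 to 4, against 4.25, 3.04, 2.43 and 3.84 CPM in Sham libraries 1 to 4 (log2 fold change 3.08, edgeR adjusted p = 0.00503). The Sham libraries stood in the same order for Syn3 as for Timp3, library 1 highest and library 3 lowest, while I/R library 1 was the lowest of its group for both. In I/R + ML264 library 2, A730049H05Rik stood at 45.0 CPM, Gm15737 at 30.6 CPM and Syn3 at 20.3 CPM, above the 6.82 to 9.57, 6.54 to 18.1 and 6.0 to 9.44 CPM of the other 3 libraries of that group. The part of these overlapping genes in the values of Adamts9 and Timp3 was not tested.

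**Figure D3:**
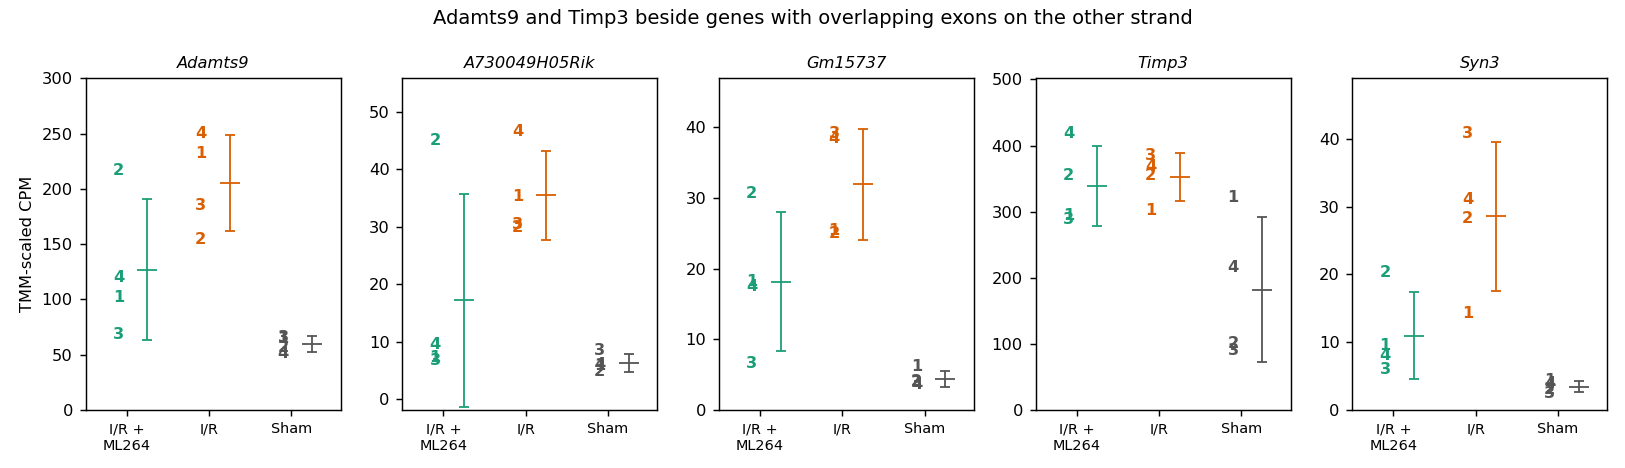
TMM-scaled CPM (vertical axes, linear, 1 scale per gene) of Adamts9 and Timp3 and of genes with overlapping exons on the other strand, in I/R + ML264, I/R and Sham; digits are library numbers and bars are mean ± SD (n = 4). Library 2 of I/R + ML264 stands at 217 CPM for Adamts9 and at 45.0 CPM for A730049H05Rik, beside the I/R libraries.

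The other genes of matrix proteolysis were read in 7 lists. Over all genes tested, 4.58% were called higher and 3.17% lower in I/R than in Sham. The lists are short, so their counts are a description and no test of a list. Among the other ADAMTS proteases and ADAMTS-like proteins, 3 of 17 tested rose and 1 fell in I/R against Sham (median log2 fold change 0.19). Adamtsl4, an ADAMTS-like protein of elastic microfibrils, averaged 14.8 ± 2.27 CPM in I/R and 9.35 ± 1.49 CPM in Sham (log2 fold change 0.67 ± 0.15 SE, edgeR adjusted p = 0.0151). Adamts14, a procollagen N-proteinase like Adamts2, averaged 2.71 ± 0.456 CPM in I/R and 1.55 ± 0.194 CPM in Sham (0.81 ± 0.20, adjusted p = 0.0219). Adamts20, a versican-cutting relative of Adamts9, averaged 1.17 ± 0.422 CPM in I/R and 0.354 ± 0.0776 CPM in Sham (1.71 ± 0.44, adjusted p = 0.0268). These 3 genes stood well below Adamts9 in every group.

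Adamts7, which cuts cartilage oligomeric matrix protein, was the list member that fell. It was at 4.98, 5.58, 5.83 and 4.01 CPM in I/R libraries 1 to 4, against 8.60, 8.11, 6.46 and 6.98 CPM in Sham libraries 1 to 4 (log2 fold change -0.56 ± 0.16 SE, edgeR adjusted p = 0.0394). Libraries 1 to 4 of I/R + ML264 had it at 7.73, 9.14, 10.9 and 7.89 CPM, all above I/R. That difference of 0.81 ± 0.16 on the log2 scale was not called (adjusted p = 0.084). Tbc1d2b, whose exons overlap Adamts7 on the other strand, also fell in I/R against Sham (-0.44, adjusted p = 0.0268).

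Among the other MMPs, 1 of 14 tested rose and 1 fell in I/R against Sham (median log2 fold change -0.03). Mmp9, gelatinase B, which neutrophils carry in granules, was at 0.439, 0.275, 1.09 and 1.31 CPM in I/R libraries 1 to 4, against 0, 0.145, 0.208 and 0 CPM in Sham libraries 1 to 4 (log2 fold change 3.01 ± 0.78 SE, edgeR adjusted p = 0.0263, and 2.6 to 3.82 when 1 library was left out). The call rests on 81 counts in I/R and 10 in Sham, a depth-scaled ratio of 7.68 with a 95% counting interval of 3.97 to 16.6. Mmp28, epilysin, averaged 0.376 ± 0.131 CPM in I/R and 1.04 ± 0.400 CPM in Sham, from 39 counts in I/R and 110 in Sham (-1.46 ± 0.43, adjusted p = 0.0484). Of its 31-base words, 11.11% also occurred in other genes.

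Of 14 genes of proprotein activation, the plasmin system and protease clearance, 2 rose and 0 fell (median 0.26). Sdc4, the cell-surface proteoglycan syndecan-4, averaged 12.4 ± 1.96 CPM in I/R and 5.58 ± 0.942 CPM in Sham (log2 fold change 1.15 ± 0.20 SE, edgeR adjusted p = 0.00404). Plaur, the receptor that holds urokinase at the cell surface, averaged 8.28 ± 3.71 CPM in I/R and 0.941 ± 0.725 CPM in Sham (3.14 ± 0.66, adjusted p = 0.021). Of 11 ADAM sheddases and iRhoms, 1 rose and 0 fell (median 0.12): Adam15 averaged 16.5 ± 0.723 CPM in I/R and 10.2 ± 1.74 CPM in Sham (0.69 ± 0.14, adjusted p = 0.00847), with 18.23% of its words shared with other genes. None was called among 6 other inhibitors, 15 proteoglycan and adhesive substrates and 16 collagens and elastic fibre genes, where 1, 2 and 3 genes had an unadjusted p under 0.05. Over all genes tested, 23.2% had such an unadjusted p in edgeR. DESeq2 called 1, 2 and 2 genes of these lists (1779 of 15933 genes in all), and voom called 0, 2 and 2 (1442 of 15952 in all). Their median log2 fold changes were 0.21, 0.08 and -0.26. Vcan, the versican that Adamts1 and Adamts9 cut, averaged 55.0 ± 8.50 CPM in I/R and 51.1 ± 8.73 CPM in Sham (0.11 ± 0.15, adjusted p = 0.738).

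Whichever 1 library was left out, Adam15 and Sdc4 stayed called. Adamtsl4 was not called without Sham library 3 (edgeR adjusted p = 0.0528), Plaur without I/R library 4 or Sham library 2 or 3 (0.0527 to 0.0665), and Adamts14 without I/R library 1 or Sham library 2 or 3 (0.0643 to 0.0653). Adamts20 was not called without I/R library 4 or Sham library 1, 2 or 3 (0.0564 to 0.0947), and Mmp9 without I/R library 3 or 4 or Sham library 1, 2 or 4 (0.0532 to 0.0853). Adamts7 was not called without I/R library 1, 2 or 4 or Sham library 1, 2 or 4 (0.0561 to 0.117). Mmp28 stayed called only without I/R + ML264 library 2, I/R library 3 or Sham library 4, and its adjusted p was 0.0574 to 0.125 without any of the other 9. With Y-linked expression as a covariate, 6 of these genes were not called: Adamts14, Plaur, Mmp9, Adamts20, Adamts7 and Mmp28 (0.0683 to 0.173). With Arntl as a covariate these 6 and Adamtsl4 were not called (0.0547 to 0.182). In libraries with Y-linked transcripts only, Adamts14, Adamts20, Adamts7, Mmp9 and Mmp28 were not called (0.134 to 0.278). In voom, Adamts20, Adamts7 and Mmp28 were not called (adjusted p = 0.0501, 0.0578 and 0.144), and with a non-robust spread Mmp28 was not called (0.0525).

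No gene of the 7 lists was called by edgeR in I/R + ML264 against I/R or against Sham. By unadjusted p under 0.05 in edgeR, the lists had 0 to 2 genes each in the comparison with I/R and 2 to 8 each in the comparison with Sham. For all genes these shares were 10.4% and 13.0%. The 8 were among the 16 collagens and elastic fibre genes (median log2 fold change -0.33), and the 6 other inhibitors had 3 (median 0.44). DESeq2 called 1 gene of 1 list, the other ADAMTS genes, in the comparison with I/R, and 0 to 2 genes per list in the comparison with Sham, and voom called 0 and 1 gene in all. Timp4, the TIMP known from heart muscle, was at 28.7, 43.5, 60.6 and 58.4 CPM in I/R + ML264 libraries 1 to 4, 36.8, 29.7, 37.1 and 27.7 CPM in I/R libraries 1 to 4, and 28.7, 13.9, 10.3 and 29.7 CPM in Sham libraries 1 to 4. It was named after its values were seen, and it was called in none of the comparisons (edgeR adjusted p = 0.645 between I/R + ML264 and I/R, 0.200 between I/R + ML264 and Sham, 0.308 between I/R and Sham).

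**Figure D4:**
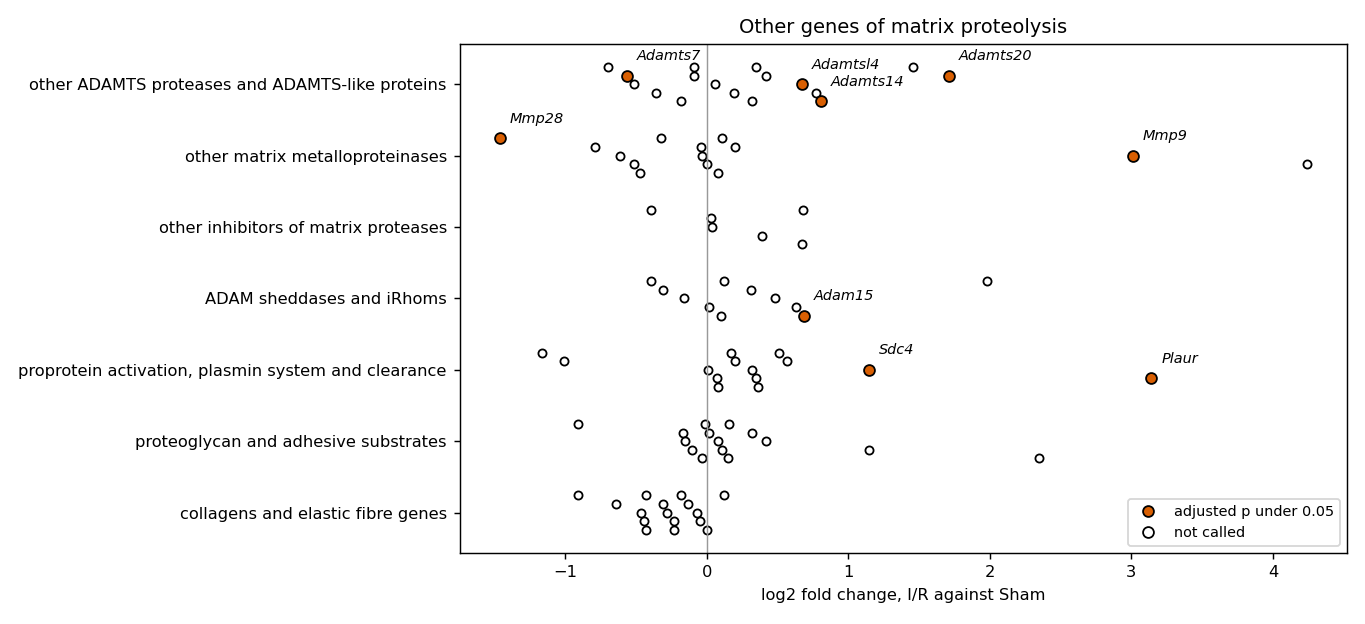
Log2 fold changes in I/R against Sham (horizontal axis) of the other genes of matrix proteolysis, 1 point per gene and 1 row per list; filled, named points have an adjusted p under 0.05. Plaur at 3.14 and Mmp9 at 3.01 lie farthest to the right of the called genes, and Adamts7 and Mmp28 are the called genes left of 0.

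Markers of the cell types that heart tissue holds were summed per library. Their counts of called genes stand beside 4.58% higher and 3.17% lower over all genes in I/R against Sham. In lists this short they are a description only. Cardiomyocyte markers reached 24200 to 28400 CPM in I/R + ML264, 24800 to 28000 CPM in I/R and 22400 to 26100 CPM in Sham, the highest sum of the 8 lists in every group, and 2 of 8 rose in I/R against Sham. Fibroblast markers, with 0 of 9 called, summed to 513 to 574 CPM in I/R + ML264, 516 to 592 CPM in I/R and 470 to 544 CPM in Sham, and several of them also stand in the lists of substrates and collagens. Endothelial markers summed to 424 to 521 CPM in I/R + ML264, 445 to 501 CPM in I/R and 543 to 600 CPM in Sham, and Tek and Kdr, 2 of the 8, fell in I/R. Smooth muscle and pericyte markers, with 1 of 8 lower, summed to 931 to 1220 CPM in I/R + ML264, 1060 to 1240 CPM in I/R and 1110 to 1310 CPM in Sham. Monocyte and macrophage markers, with 1 of 9 lower, summed to 121 to 143 CPM in I/R + ML264, 111 to 145 CPM in I/R and 109 to 188 CPM in Sham.

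Neutrophil markers summed to 5.14 to 19.9 CPM in I/R + ML264, 7.98 to 18.4 CPM in I/R and 4.65 to 7.36 CPM in Sham, and 2 of the 5 tested rose in I/R, Clec4d and Mmp9, which is itself a marker on that list. Platelet markers, with 0 of 4 called, summed to 1.88 to 105 CPM in I/R + ML264, 3.82 to 140 CPM in I/R and 2.08 to 14.9 CPM in Sham. The highest of these sums in I/R was in library 4. That was also the highest I/R library for Adamts1 at 377 CPM, Adamts4 at 20.4 CPM, Adamts9 at 250 CPM, Timp1 at 1.05 CPM and Mmp9 at 1.31 CPM. For Adamts5, Mmp2 and Mmp14 it was the lowest I/R library, at 18.7, 17.3 and 3.18 CPM. Epicardial and mesothelial markers summed to 5.22 to 14.3 CPM in I/R + ML264, 7.54 to 13.1 CPM in I/R and 3.01 to 4.52 CPM in Sham, and Wt1, 1 of the 2 tested, rose. No marker was at 0 in all 12 libraries. The part of these cell types in the levels of Adamts1, Adamts4, Adamts9, Timp1 or Mmp9 was not tested.

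Likeness was measured over the 10797 tested genes whose log2 CPM averaged 1 or more, without Gm, Rik and pseudogene symbols. Those whose log2 CPM over the 12 libraries was most like Adamts9 were Rnf125 (Pearson r = 0.974), Dennd4a (0.972) and Slc6a17 (0.97). Those most like Adamts1 were Arid5a (0.978), Bhlhe40 (0.973) and Zfp36 (0.972), the last of which encodes the RNA-binding protein tristetraprolin. These correlations are a description over 12 libraries that share the difference between the groups. All 6 genes rose in I/R against Sham, with log2 fold changes of 0.60 to 1.93 for the genes most like Adamts9 and 1.48 to 2.58 for those most like Adamts1. Zfp36 was at 57.0 to 217 CPM in I/R and 8.37 to 51.7 CPM in Sham, and Rnf125 was at 8.18 to 13.6 CPM in I/R and 2.17 to 3.48 CPM in Sham.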

How the data were processed

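The authors deposited estimated counts for each transcript and library, without normalization. The submitters' processing notes name kallisto, FastQC and GRCm38 (mm10); for the versions, nothing is given in the sources used here. Per the labels' protocols, TRIzol RNA was turned into cDNA and prepared with Nextera XT, which does not mark strand. The table held 104952 transcripts. They were summed per gene symbol and rounded, which gave 25553 genes with counts. The filterByExpr function at a minimum of 10 counts left 15952 genes. All 12 libraries were fitted in 1 model with edgeR 4.0.16 (R 4.3.3) using TMM factors (robust quasi-likelihood F-test, biological coefficient of variation 0.205), with Benjamini-Hochberg adjustment over all genes. The scripts were tested on simulated data. Alternatives used DESeq2 1.42.0, limma 3.58.1 voom, other factors, filters, covariates and libraries. Replicates of a group differed by more than counting noise (chi-square per gene 7.364 to 69.95). Gene positions came from GENCODE M21. The values of 1 gene are not reported here. The members, the lists and the named genes (all members, up to 4 called genes per list with the smallest adjusted p, and the 3 genes most like Adamts1 and Adamts9) were chosen with earlier results of these data known. Without molecular identifiers, depth-based intervals and limits hold for counting error only.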

Additional observations from a re-analysis of the deposited data

Results flagged for a closer look

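In 4 of the 30 combinations of a member and a group, 1 library stood apart from the other 3 by more than Dixon's 95% limit for the gap over the range. Chance gives about 1 in 20 for independent, normally spread values. Linear CPM of low genes need not be spread so, and the combinations share libraries, so that rate is no background for the 4. Adamts4 was at 7.20 CPM in I/R + ML264 library 2, against 1.37 CPM in the next highest library of that group (gap over range 0.837). Timp1 was at 0.775 CPM in the same library, against 0.0441 CPM in the next (0.943). Adamts4 was at 20.4 CPM in I/R library 4, against 6.96 CPM in the next highest (0.868). Adamts2 was at 17.7 CPM in Sham library 2, the lowest of its group, against 19.6 CPM in the next (0.982), a small gap in a narrow range.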

How the results depend on the processing

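Adamts9 in I/R against Sham was called under all 13 alternatives and without each of the 12 libraries in turn (adjusted p 7.75e-06 to 0.0407). For I/R against Sham, the count of called members was 2. It was 1 with the Y-linked covariate, in libraries with Y-linked transcripts only, in a fit of the compared groups only and with the replicate block, and 4 in voom; without 1 library it was 1 to 3. All genes called were 1236, against 636 with the Arntl covariate, 446 with the Y-linked covariate and 553 in libraries with Y-linked transcripts only, and 659 to 1485 without 1 library. For I/R + ML264 against I/R, 0 members were called under any alternative, and all genes called were 8, against 151 in DESeq2, 22 with no filter, 2 with a non-robust spread, 2 in libraries with Y-linked transcripts only and 1 with the replicate block. Without 1 library they were 0 to 85, the highest without I/R + ML264 library 2. For I/R + ML264 against Sham, 0 members were called, against 1 in DESeq2. All genes called were 46, against 12 with the Arntl covariate, 370 in DESeq2, 15 with the Y-linked covariate, 78 with no filter, 72 with a non-robust spread, 27 in libraries with Y-linked transcripts only, 27 in a fit of the compared groups only, 19 with the replicate block, and 9 to 101 without 1 library. The cause of these shifts was not tested.

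Log2 fold changes that changed sign were all of uncalled members. In I/R against Sham, Mmp2 was 0.03 with the Arntl covariate and 0.05 in libraries with Y-linked transcripts only, Mmp14 was 0.30 with the Arntl covariate and 0.02 in voom, Timp1 was -0.07 with the Y-linked covariate, and Timp2 was -0.01 with upper-quartile factors. In I/R + ML264 against I/R, Adamts2 was 0.03 and Mmp2 -0.20 in libraries with Y-linked transcripts only, and Mmp2 was -0.01 in voom. In I/R + ML264 against Sham, Adamts4 was -0.51 with the Y-linked covariate, -0.97 in libraries with Y-linked transcripts only and -0.36 in voom. There Mmp2 was -0.01, -0.15 and -0.01 under the same settings, Mmp14 was 0.11 with the Arntl covariate, and Adamts5 was 0.02 and Timp2 -0.06 in libraries with Y-linked transcripts only. Without 1 library, the ranges that held a change of sign in I/R against Sham were -0.22 to 0.10 for Mmp14, -0.09 to 0.04 for Mmp2 and -0.05 to 0.11 for Timp2. In I/R + ML264 against I/R they were -0.06 to 0.15 for Mmp2 and -0.18 to 0.01 for Timp3. In I/R + ML264 against Sham they were -1.12 to 1.21 for Adamts4, -0.10 to 0.12 for Mmp2, -2.91 to 0.98 for Timp1 and -0.07 to 0.11 for Timp2. Timp1 was too low for the filter of 1 CPM in 4 libraries and for a fit of the compared groups only, which give no value for it.

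Libraries with the same replicate number in different groups had correlations of -0.11 to 0.097 in their deviations from the group means, and 1 of 12 libraries correlated best with its own number, so the numbers were not taken as pairs. With the replicate block, Adamts1 in I/R against Sham had a log2 fold change of 2.49 and an adjusted p of 0.0598, and Mmp28 had -1.47 and 0.0586. At these depths, 3 counts stand for 0.1002 to 0.1348 CPM, which limits Timp1 most.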
